A study of Homo sapiens with 16 samples.

Results

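The genes described here are the 35 listed genes of aminoacyl-tRNA synthetases, 19 of the cytosol and 16 of mitochondria, measured in 4 established human cell lines of acute myeloid leukaemia (AML). They were chosen by name, with cytosolic enzymes taken as names ending in 1 plus FARSA and FARSB, and mitochondrial enzymes as names ending in 2. Of the 19775 genes with a probe set assigned to 1 gene symbol, 32 were listed members, and all 32 (17 cytosolic and 15 mitochondrial) passed the filter on dim signal that left 14049 genes for testing. MARS1, QARS1 and TARS2 had only probe sets assigned to several symbols, and their signals were not analysed here. Each line was cultured in light-label SILAC medium and treated with azacitidine (AZA), a cytidine analogue that traps DNA methyltransferases, or with vehicle (DMSO). AZA was given at 0.5 µM daily for 3 days and was followed by 4 days without drug. The 8 groups were AML-193 with AZA, AML-193 with vehicle, HNT-34 with AZA, HNT-34 with vehicle, KG1a with AZA, KG1a with vehicle, HL60 with AZA and HL60 with vehicle, each with 2 Affymetrix U133 Plus 2.0 arrays and each a single cell line. Whether the 2 arrays of each group were separate cultures is not stated in the labels, so the p-values cover the spread between these arrays, possibly a technical one.

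Each synthetase joins 1 kind of amino acid to its tRNA, the step that supplies charged tRNA to the ribosome. Human cells keep separate enzymes for the cytosol and for mitochondria for most amino acids, all encoded in the nucleus, whereas GARS1 and KARS1 each encode both forms. Several cytosolic enzymes sit together in a multi-synthetase complex. When amino acids or charged tRNA run short, the kinase GCN2 phosphorylates eIF2 and the transcription factor ATF4 accumulates, and many cytosolic synthetase genes are reported ATF4 targets.

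Signals are log2 values, and levels of different genes cannot be set against each other because each gene has its own probe set. Over the tested genes r was 0.995 to 0.998 between replicates, 0.969 to 0.989 between treatments within a line, and 0.796 to 0.910 between lines. Of the 7 haematopoietic and myeloid markers measured, 6 or 7 were above the array median in every group. Of the 9 measured markers of other cell types, 4 or 5 were above it, and their summed level was 66.4 with AZA and 64.7 with vehicle in AML-193, 71.6 and 71.3 in HNT-34, 67.2 and 64.2 in KG1a, and 66.3 and 62.6 in HL60. EPCAM (3.97 to 4.39) and ALB (4.73 to 5.04) were low in every group, but others were not. The epithelial gene KRT18 was 12.32 with AZA and 12.74 with vehicle in HNT-34, and 8.73 and 7.37 in HL60. The fibroblast gene COL1A1 was 9.29 to 9.94 in every group. With AZA the T cell gene CD3D was called higher in all 4 lines (0.75 on the mean), the endothelial gene PECAM1 in 3 (0.72) and the myeloid gene LYZ in 4 (1.02). The part of these markers in the results below was not tested. RNA integrity, read from the control probe sets of ACTB and GAPDH as 3′ minus 5′ signal, was 0.198 ± 0.0433 with AZA and 1.27 ± 0.463 with vehicle in AML-193 (SD, n = 2 each). In HL60 it was 0.722 ± 0.163 with AZA and 0.0443 ± 0.0116 with vehicle, and in HNT-34 and KG1a the group means lay between -0.102 and 0.0587. Because this measure moved with treatment in AML-193 and HL60, the parts of the 2 cannot be told apart there. Counts of members from a fit with it as a covariate are given beside the main ones. That fit had wider standard errors, such as 0.14 instead of 0.06 for IARS1 in AML-193, so a call can be lost at a similar difference.

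AZA was followed by lower signals of most cytosolic synthetase genes, while the mitochondrial genes moved both ways. On the mean of the 4 AZA minus vehicle differences, 12 of 17 cytosolic genes fell and 0 rose, against 16.5% of all tested genes lower and 23.3% higher (39.8% called in all, limma, adjusted p under 0.05). Of the 15 mitochondrial genes 5 fell and 1 rose. Under the RNA integrity covariate 12 cytosolic genes were lower and 0 higher, and 5 mitochondrial genes were lower and 1 higher. Of all tested genes 16.2% were then lower and 23.4% higher. The median change was -0.39 for cytosolic genes, -0.09 for mitochondrial genes and 0.03 for all tested genes. WARS1 had rank 9 from the lowest mean among the 14049 genes, AARS1 rank 19, GARS1 rank 23 and CARS1 rank 33.

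The lines differed in how many of these genes passed the test. In AML-193, 11 cytosolic genes fell and 2 rose, with a median of -0.37, and 3 mitochondrial genes fell and 6 rose, with a median of 0.06 (20.2% of all genes were called lower and 20.7% higher, 40.9% together). In HNT-34, 12 cytosolic genes fell and 1 rose, with a median of -0.58, and 3 mitochondrial genes fell and 1 rose, with a median of -0.11 (14.8% of all genes lower, 15.4% higher, 30.2% together). In KG1a, 4 cytosolic and 2 mitochondrial genes fell and 0 rose, with medians of -0.18 and -0.13 (3.36% of all genes lower, 6.56% higher, 9.92% together). In HL60, 10 cytosolic genes fell and 2 rose, with a median of -0.37, and 4 mitochondrial genes fell and 4 rose, with a median of 0.10 (16% of all genes lower, 25.2% higher, 41.2% together). The all-gene medians were 0.02, 0.01, 0.02 and 0.05 in AML-193, HNT-34, KG1a and HL60. With the RNA integrity covariate, 7 cytosolic genes were lower in AML-193, 12 in HNT-34, 7 in KG1a and 8 in HL60, where 1.12%, 15.8%, 4.33% and 5.64% of all tested genes were. Under the same covariate 0 of the 15 mitochondrial genes were called in AML-193, 4 were lower and 1 higher in HNT-34, 2 lower and 0 higher in KG1a, and 2 lower and 2 higher in HL60, where 1.54%, 16.7%, 7.67% and 9.65% of all genes were higher.

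**Figure D1:**
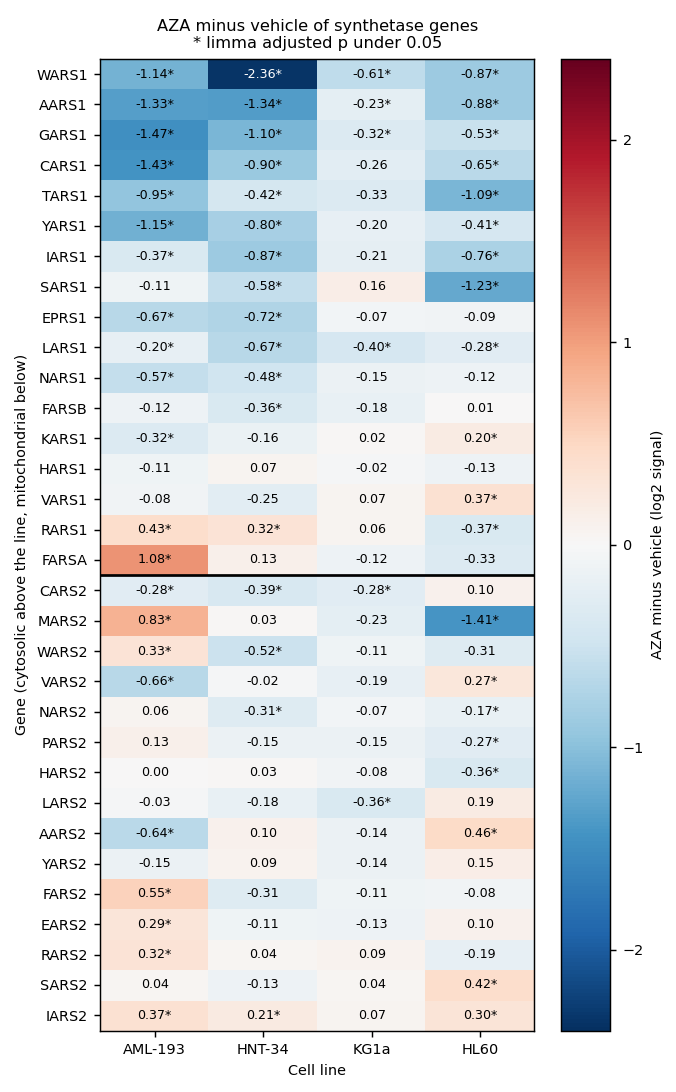
Heat map of AZA minus vehicle (log2 signal, colour and printed value) for the 32 genes in rows and the 4 lines in columns; asterisks mark a limma adjusted p under 0.05, and the black line parts the cytosolic genes above from the mitochondrial genes below. The blue block at the top holds the falls of WARS1 to YARS1, palest in KG1a, and MARS2 is red in AML-193 (0.83) and blue in HL60 (-1.41).

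**Figure D2:**
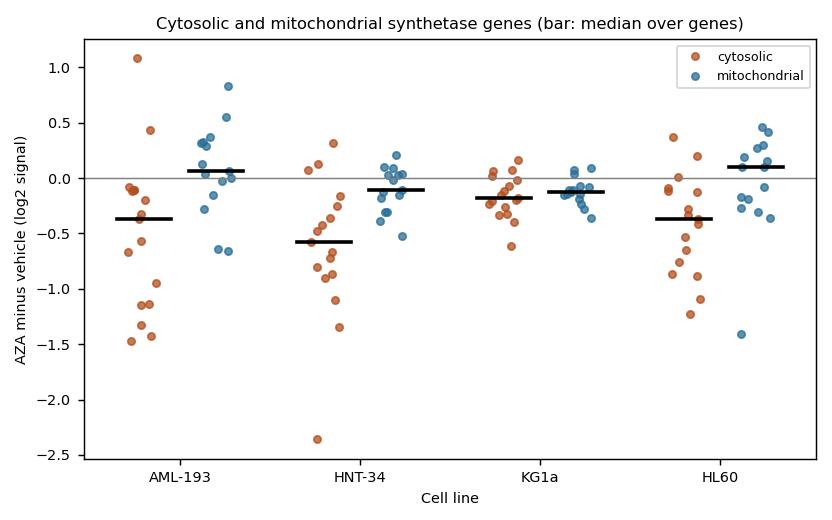
AZA minus vehicle (log2 signal) of each gene by line, cytosolic (orange) left of mitochondrial (blue), with a black bar at the median over genes. Medians of the cytosolic genes were -0.37 in AML-193, -0.58 in HNT-34, -0.18 in KG1a and -0.37 in HL60, against 0.06, -0.11, -0.13 and 0.10 for the mitochondrial genes.

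Across lines, 4 of 17 cytosolic genes (WARS1, AARS1, GARS1 and LARS1) and 0 of 15 mitochondrial genes were called lower in all 4 lines, against 0.320% of all tested genes. Only the WARS1 calls held in every line without any 1 array. Leaving out certain single arrays lost the calls of AARS1 and GARS1 in KG1a and of LARS1 in AML-193. With the RNA integrity covariate LARS1 was not called in AML-193 or HL60. Lower calls in at least 3 lines were made for 8 cytosolic genes and 1 mitochondrial gene, CARS2, against 2.19% of all genes. IARS2 alone was called higher in at least 3 lines, against 3.92%. Array by array, both AZA arrays lay below both vehicle arrays for 12 of 17 cytosolic and 4 of 15 mitochondrial genes in AML-193 (33.4% of all tested genes), and above them for 2 and 8 (35.9%). In HNT-34 they lay below for 14 cytosolic and 9 mitochondrial genes (33.3%) and above for 1 and 4 (35.2%). KG1a had 11 cytosolic and 10 mitochondrial genes below (23.5%) and 1 of each above (28.8%). HL60 had 14 cytosolic and 7 mitochondrial genes below (28.3%) and 2 and 6 above (41.2%). The size of the AZA effect differed between the lines for 27 of the 32 genes, 14 cytosolic and 13 mitochondrial (moderated F-test of limma), where 57.0% of all tested genes did. With the RNA integrity covariate 17 of the 32 did, against 31.3% of all tested genes.

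WARS1, the tryptophanyl enzyme and a known interferon-gamma-induced gene, had the largest fall. In HNT-34 its signal was 11.49 and 11.53 with AZA, against 13.93 and 13.81 with vehicle. The AZA arrays lay far below the vehicle arrays, a 5.13-fold lower signal (-2.36 ± 0.07 log2 units ± SE, adjusted p = 1.16e-10). AML-193 had 11.10 and 11.01 with AZA, against 12.19 and 12.20 with vehicle (-1.14 ± 0.07, adjusted p = 2.17e-07). HL60 had 12.41 and 12.23 with AZA, against 13.18 and 13.20 with vehicle (-0.87 ± 0.07, adjusted p = 1.93e-06). KG1a had 12.28 and 12.31 with AZA, against 12.89 and 12.91 with vehicle (-0.61 ± 0.07, adjusted p = 0.000131). The arrays of the 2 treatments did not overlap in any line, and the fall differed between lines (range 1.75, adjusted p = 2.27e-07). Its less bright probe set gave -0.27 in AML-193, where the one used gave -1.14, and -1.45, -2.01 and -0.57 in HL60, HNT-34 and KG1a. All 4 calls held without any 1 array and with the RNA integrity covariate in AML-193 (-1.11) and HL60 (-0.88).

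AARS1, the alanyl enzyme, fell in every line. Its signal in AML-193 was 10.81 and 10.75 with AZA, against 12.10 and 12.13 with vehicle (-1.33 ± 0.07, adjusted p = 1.8e-08). In HNT-34 it was 11.65 and 11.60 with AZA, against 12.98 and 12.94 with vehicle (-1.34 ± 0.07, adjusted p = 7.84e-09). The falls in AML-193 and HNT-34 differed by less than their standard errors. HL60 arrays gave 11.71 and 11.64 with AZA, against 12.56 and 12.54 with vehicle (-0.88 ± 0.07, adjusted p = 7.13e-07). KG1a arrays gave 12.16 and 12.23 with AZA, against 12.47 and 12.38 with vehicle (-0.23 ± 0.07, adjusted p = 0.0469). The KG1a arrays of the 2 treatments were close but did not overlap. That call was lost without any 1 of the 4 KG1a arrays (-0.18 to -0.28, adjusted p = 0.0521 to 0.272), without any 1 of the 4 HNT-34 arrays or either HL60 vehicle array or AML-193 AZA array (-0.23 in each, adjusted p = 0.0600 to 0.0736).

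GARS1, the glycyl enzyme of both compartments, also fell in every line. AML-193 arrays read 12.01 and 11.94 with AZA, against 13.36 and 13.52 with vehicle (-1.47 ± 0.08, adjusted p = 4.81e-08). HNT-34 arrays read 12.69 and 12.68 with AZA, against 13.79 and 13.79 with vehicle (-1.10 ± 0.08, adjusted p = 3.24e-07). The vehicle arrays were above the AZA arrays by more than a full log2 unit in both lines. HL60 arrays read 12.93 and 12.75 with AZA, against 13.37 and 13.36 with vehicle (-0.53 ± 0.08, adjusted p = 0.000226). KG1a arrays read 12.63 and 12.75 with AZA, against 13.05 and 12.97 with vehicle (-0.32 ± 0.08, adjusted p = 0.0221). Without KG1a vehicle replicate 1 the KG1a value was -0.28 (adjusted p = 0.135), and without KG1a AZA replicate 1 it was -0.26 (adjusted p = 0.199).

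CARS1, TARS1 and YARS1, the cysteinyl, threonyl and tyrosyl enzymes, each fell in AML-193, HNT-34 and HL60. CARS1 had 11.58 and 11.55 with AZA, against 13.05 and 12.94 with vehicle in AML-193 (-1.43 ± 0.08, adjusted p = 5.23e-08), and 12.00 and 12.04 with AZA, against 12.95 and 12.89 with vehicle in HNT-34 (-0.90 ± 0.08, adjusted p = 2.05e-06). It had 12.27 and 12.10 with AZA, against 12.82 and 12.85 with vehicle in HL60 (-0.65 ± 0.08, adjusted p = 4.03e-05), and 11.93 and 12.07 with AZA, against 12.29 and 12.22 with vehicle in KG1a (-0.26 ± 0.08, adjusted p = 0.0604). No line had overlapping CARS1 arrays, yet its 3 bright probe sets spread from -1.43 to 0.17 in AML-193 and from -2.90 to -0.65 in HL60. TARS1 had 10.85 and 10.79 with AZA, against 11.63 and 11.91 with vehicle in AML-193 (-0.95 ± 0.11, adjusted p = 2.97e-05), and 11.97 and 12.28 with AZA, against 13.20 and 13.22 with vehicle in HL60 (-1.09 ± 0.11, adjusted p = 6.95e-06). It had 12.18 and 12.21 with AZA, against 12.59 and 12.64 with vehicle in HNT-34 (-0.42 ± 0.11, adjusted p = 0.00926), and 12.03 and 12.03 with AZA, against 12.46 and 12.27 with vehicle in KG1a (-0.33 ± 0.11, adjusted p = 0.0755). The TARS1 fall in HNT-34 lost its call without HNT-34 vehicle replicate 2 (-0.39, adjusted p = 0.0615) or HNT-34 AZA replicate 1 (-0.41, adjusted p = 0.0555), and the less bright probe set gave 0.10 in HL60 and 0.00 in HNT-34. With averaged probe sets the HNT-34 value of TARS1 was -0.21 (adjusted p = 0.174), but the less bright one had a mean signal of 6.50, against 12.14.

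For YARS1 the AML-193 arrays showed 12.15 and 12.12 with AZA, against 13.29 and 13.28 with vehicle (-1.15 ± 0.07, adjusted p = 2.15e-07). The HNT-34 arrays showed 12.54 and 12.48 with AZA, against 13.37 and 13.26 with vehicle (-0.80 ± 0.07, adjusted p = 3.11e-06). In both, AZA arrays lay well below vehicle arrays. The HL60 arrays showed 12.96 and 12.78 with AZA, against 13.25 and 13.31 with vehicle (-0.41 ± 0.07, adjusted p = 0.00081), with 0.09 from the less bright probe set and -0.16 for the average of both (adjusted p = 0.194). The KG1a arrays showed 12.74 and 12.70 with AZA, against 12.91 and 12.92 with vehicle (-0.20 ± 0.07, adjusted p = 0.127). With the RNA integrity covariate, AARS1, GARS1, CARS1, TARS1 and YARS1 all stayed below the threshold in AML-193 (-1.32, -1.54, -1.19, -1.35 and -1.08) and in HL60 (-0.89, -0.48, -0.80, -0.84 and -0.45).

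**Figure D3:**
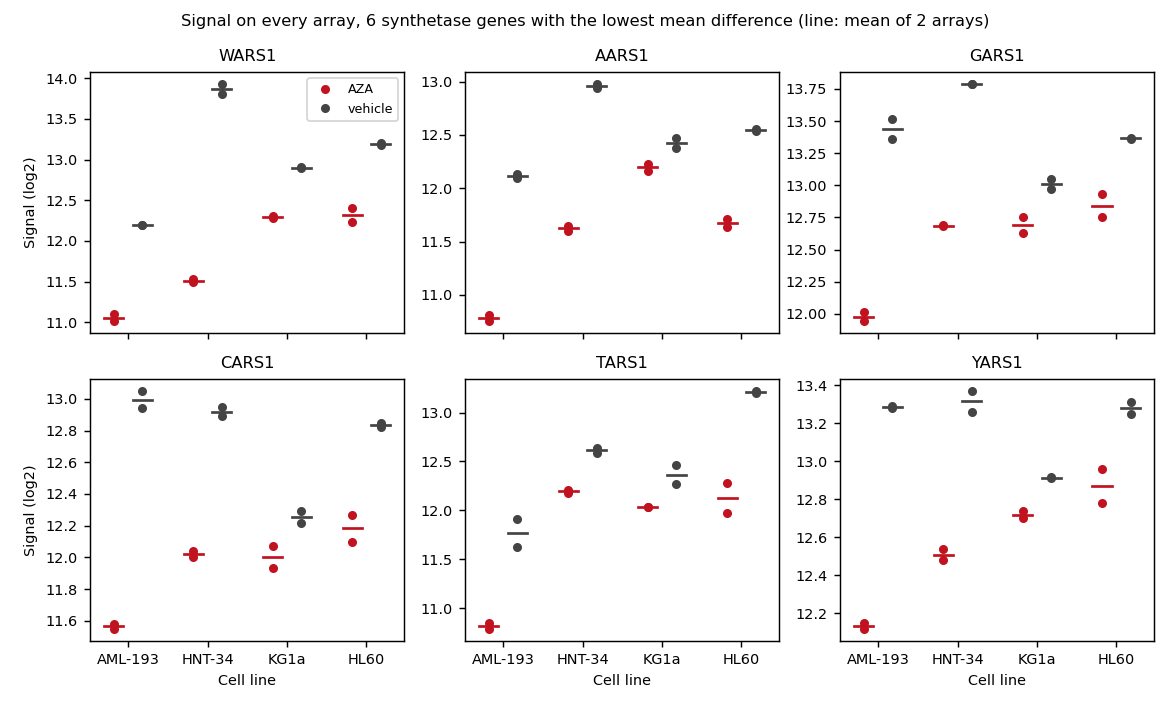
Signal (log2) on each of the 16 arrays for WARS1, AARS1, GARS1, CARS1, TARS1 and YARS1, with AZA (red) left of vehicle (grey) in each line and a bar at the mean of the 2 arrays. In every panel and line both AZA points are below both vehicle points, and the gap is widest for WARS1 in HNT-34 (11.49 and 11.53 with AZA, 13.93 and 13.81 with vehicle).

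The promoter windows of the 5 genes with the largest mean falls, and of WARS2, the mitochondrial partner of WARS1, are shown because ATF4 with a C/EBP partner is known to bind the composite element TGATGNAA. Each window runs from 250 bases before to 50 after an annotated start (RefSeq, GRCh38.p14), written 5′ to 3′ on the strand of the gene. For TARS1 that start lies downstream of the first base of the gene (chr5:33440696), and the whole window lies within the gene. Capitals mark a match on either strand.
WARS1: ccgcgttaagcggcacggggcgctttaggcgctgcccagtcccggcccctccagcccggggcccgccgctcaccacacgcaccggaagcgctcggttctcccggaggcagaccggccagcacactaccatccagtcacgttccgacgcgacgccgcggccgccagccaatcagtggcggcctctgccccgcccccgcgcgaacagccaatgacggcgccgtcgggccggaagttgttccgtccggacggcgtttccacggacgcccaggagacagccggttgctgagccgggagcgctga
AARS1: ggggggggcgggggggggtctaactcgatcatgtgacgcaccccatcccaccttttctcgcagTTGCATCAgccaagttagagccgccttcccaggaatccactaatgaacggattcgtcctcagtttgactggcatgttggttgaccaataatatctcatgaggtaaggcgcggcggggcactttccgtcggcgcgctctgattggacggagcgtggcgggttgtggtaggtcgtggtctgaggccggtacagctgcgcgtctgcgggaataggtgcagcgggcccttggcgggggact
GARS1: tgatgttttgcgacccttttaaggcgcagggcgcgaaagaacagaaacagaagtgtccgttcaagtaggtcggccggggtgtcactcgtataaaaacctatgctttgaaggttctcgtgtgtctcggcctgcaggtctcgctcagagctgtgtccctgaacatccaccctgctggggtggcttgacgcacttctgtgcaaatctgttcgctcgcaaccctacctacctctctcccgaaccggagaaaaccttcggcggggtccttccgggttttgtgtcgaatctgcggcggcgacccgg
CARS1: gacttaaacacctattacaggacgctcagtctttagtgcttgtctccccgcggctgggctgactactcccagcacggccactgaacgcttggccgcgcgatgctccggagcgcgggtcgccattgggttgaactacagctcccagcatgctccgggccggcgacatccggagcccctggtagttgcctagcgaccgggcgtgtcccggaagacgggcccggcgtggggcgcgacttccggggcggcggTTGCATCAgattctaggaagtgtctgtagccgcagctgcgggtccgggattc
TARS1: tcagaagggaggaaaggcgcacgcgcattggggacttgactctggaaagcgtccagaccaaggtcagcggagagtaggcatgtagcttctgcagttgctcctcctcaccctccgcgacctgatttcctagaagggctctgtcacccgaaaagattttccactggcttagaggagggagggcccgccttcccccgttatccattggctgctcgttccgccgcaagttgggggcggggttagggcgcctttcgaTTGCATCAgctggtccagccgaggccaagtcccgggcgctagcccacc
WARS2: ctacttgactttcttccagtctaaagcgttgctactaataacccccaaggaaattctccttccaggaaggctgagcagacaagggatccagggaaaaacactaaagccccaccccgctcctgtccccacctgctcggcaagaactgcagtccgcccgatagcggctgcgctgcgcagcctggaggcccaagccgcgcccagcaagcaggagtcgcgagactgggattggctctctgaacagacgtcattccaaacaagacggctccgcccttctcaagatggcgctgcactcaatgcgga
They lie at chr14:100376278-100376577 (WARS1, minus strand), chr16:70289457-70289756 (AARS1, minus strand), chr7:30594485-30594784 (GARS1, plus strand), chr11:3057374-3057673 (CARS1, minus strand), chr5:33440715-33441014 (TARS1, plus strand) and chr1:119140623-119140922 (WARS2, minus strand). AARS1, CARS1 and TARS1 each held TTGCATCA, the element read on the opposite strand, beginning at position -187, -2 and 3, where 1 is the start base and -1 the base before it. No match lay in the windows of WARS1, GARS1 and WARS2, which says only that these letters are not in them. Of the members with a window in the table, 6 of 16 cytosolic genes (37.5%: AARS1, CARS1, IARS1, MARS1, NARS1 and TARS1) and 1 of 14 mitochondrial genes (7.14%: YARS2) held the element. Among members with a tested probe set it was 5 of 14 cytosolic (35.7%) and 1 of 13 mitochondrial genes (7.69%), without MARS1. It was in 1.92% of the 11220 windows of tested genes and in 3.62% of all 35116 windows. A match is a description of letters, and binding was not measured.

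Among the other free cytosolic enzymes, SARS1, the seryl enzyme, fell most in HL60. Its signal there was 11.53 and 11.58 with AZA, against 12.76 and 12.82 with vehicle (-1.23 ± 0.09, adjusted p = 7.13e-07). HNT-34 arrays had 11.88 and 11.90 with AZA, against 12.50 and 12.44 with vehicle (-0.58 ± 0.09, adjusted p = 0.000403). The difference was -0.11 ± 0.09 in AML-193 and 0.16 ± 0.09 in KG1a, neither called, and the effect differed between lines (range 1.39, adjusted p = 1.46e-05). Its less bright probe set gave -0.70 in AML-193 and -0.27 in KG1a, and the average of both gave -0.41 in AML-193 (adjusted p = 0.00272), where the covariate gave -0.49 (adjusted p = 0.174). NARS1, the asparaginyl enzyme, fell in AML-193 (-0.57 ± 0.07, adjusted p = 6.68e-05) and HNT-34 (-0.48 ± 0.07, adjusted p = 0.000222). With the RNA integrity covariate its AML-193 value was -0.34 (adjusted p = 0.246). HARS1, the histidyl enzyme, was called in no line, with differences from -0.13 to 0.07. VARS1, the valyl enzyme, was 0.37 ± 0.13 in HL60 (adjusted p = 0.0421), a call lost without any 1 HL60 array (0.36 to 0.38, adjusted p = 0.117 to 0.131) or any 1 AZA array of AML-193 or HNT-34 (adjusted p = 0.0515 to 0.0552). Its other bright probe set gave -1.07 there, and in AML-193 the 2 values were -0.08 and 0.93. Averaging its probe sets turned both signs, to -0.35 in HL60 (adjusted p = 0.000728) and 0.42 in AML-193 (adjusted p = 0.000234).

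FARSA and FARSB encode the alpha and beta subunits of the cytosolic phenylalanyl enzyme. In AML-193, FARSA had 11.17 and 11.14 with AZA, against 9.89 and 10.25 with vehicle. All AZA arrays were above the vehicle arrays (1.08 ± 0.15, adjusted p = 0.000118). This rise was 0.47 with the RNA integrity covariate (adjusted p = 0.441), and the less bright probe set gave 0.04. FARSB in AML-193 had 11.72 and 11.62 with AZA, against 11.92 and 11.66 with vehicle (-0.12 ± 0.09, not called). A less bright FARSB probe set gave -1.71 there, and averaged probe sets gave -0.79 (adjusted p = 0.000519). The probe sets added to that average had mean signals of 6.75 and 5.86, against 11.84 for the one used. The covariate turned the value of the one used to 0.28 (adjusted p = 0.416). FARSB fell in HNT-34 (-0.36 ± 0.09, adjusted p = 0.00831), a call lost without HNT-34 vehicle replicate 1 (-0.32, adjusted p = 0.0604) or HNT-34 AZA replicate 2 (-0.34, adjusted p = 0.0569).

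Of the 5 measured enzymes of the multi-synthetase complex, IARS1, EPRS1 and LARS1 fell on the mean and KARS1 and RARS1 were not called, beside 9 of the 12 free cytosolic enzymes that fell (16.5% of all tested genes fell on the mean). IARS1, the isoleucyl enzyme, fell in HNT-34 (-0.87 ± 0.06, adjusted p = 2.87e-07), HL60 (-0.76 ± 0.06, adjusted p = 1.48e-06) and AML-193 (-0.37 ± 0.06, adjusted p = 0.000543). Under the RNA integrity covariate its AML-193 value was -0.40 ± 0.14 (adjusted p = 0.154). EPRS1, which charges both glutamate and proline tRNA, fell in AML-193 (-0.67 ± 0.07, adjusted p = 1.38e-05) and HNT-34 (-0.72 ± 0.07, adjusted p = 4.36e-06). In HL60 the EPRS1 probe sets ran from -2.04 to -0.09, the value of -0.09 coming from the probe set used. LARS1, the leucyl enzyme, fell in HNT-34 (-0.67 ± 0.06), KG1a (-0.40 ± 0.06), HL60 (-0.28 ± 0.06) and AML-193 (-0.20 ± 0.06). The adjusted p in AML-193 was 0.0234, and without vehicle replicate 1, AZA replicate 1 or AZA replicate 2 of that line it was 0.0991, 0.0593 and 0.114, at -0.18, -0.22 and -0.18. With the covariate LARS1 was -0.19 ± 0.14 in AML-193 (adjusted p = 0.538) and -0.29 ± 0.10 in HL60 (adjusted p = 0.0697).

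RARS1, the arginyl enzyme, took opposite directions. It had 11.51 and 11.38 with AZA, against 10.98 and 11.05 with vehicle in AML-193, where it rose (0.43 ± 0.09, adjusted p = 0.0026). In HL60, where it fell, it had 11.80 and 11.87 with AZA, against 12.19 and 12.21 with vehicle (-0.37 ± 0.09, adjusted p = 0.00624). Neither line had overlapping arrays, but neither call held with the RNA integrity covariate (0.19 with adjusted p = 0.684 in AML-193, and -0.21 with adjusted p = 0.351 in HL60). In HNT-34 it was 0.32 ± 0.09 (adjusted p = 0.0194), which lost the call without vehicle replicate 2 (0.22, adjusted p = 0.188), AZA replicate 1 (0.28, adjusted p = 0.132) or AZA replicate 2 (0.36) of HNT-34. KARS1, the lysyl enzyme of both compartments, was -0.32 ± 0.07 in AML-193 (adjusted p = 0.00351) and 0.20 ± 0.07 in HL60 (adjusted p = 0.0396). The HL60 call of KARS1 was lost without either vehicle array or AZA replicate 1 of HL60 (0.12 to 0.21, adjusted p = 0.115 to 0.260), and without any 1 HNT-34 array or KG1a AZA array (0.20, adjusted p = 0.0514 to 0.0571). With the covariate KARS1 was -0.21 in AML-193 (adjusted p = 0.525) and 0.13 in HL60 (adjusted p = 0.464). The lysyl value in AML-193 was -0.05 with averaged probe sets (adjusted p = 0.517). AIMP1, a scaffold protein of the complex, had a mean difference of -0.02 and was called in HL60 alone among the lines (-0.21).

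Sorted by earlier reports, 11 of 11 measured cytosolic genes listed as ATF4 targets fell on the mean, with a median of -0.64, and 1 of the 6 other cytosolic genes, FARSB, did, with a median of -0.01. The list was drawn up with results of these data known and is not independent evidence. By fold of the catalytic domain, 5 of 7 class I and 6 of 9 class II cytosolic genes fell on the mean, with medians of -0.55 and -0.33, beside the same 16.5%. EPRS1, whose protein holds a domain of each class, was in neither count.

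The 5 mitochondrial genes that fell on the mean were CARS2 (-0.22), MARS2 (-0.19), VARS2 (-0.15), NARS2 (-0.12) and PARS2 (-0.11). The PARS2 call (adjusted p = 0.0478) was lost without any 1 array (-0.12 to -0.09, adjusted p = 0.0519 to 0.122) other than AML-193 AZA replicate 2, HNT-34 vehicle replicate 2, HL60 vehicle replicate 1 and HL60 AZA replicate 1. Under the RNA integrity covariate PARS2 was not called on the mean (-0.11, adjusted p = 0.0585), whereas WARS2 was called lower (-0.21, adjusted p = 0.00751). MARS2, which charges the mitochondrial methionine tRNA, had the widest range between lines of all members (2.23 log2 units, adjusted p = 1.67e-06). In AML-193 it had 9.25 and 9.31 with AZA, against 8.36 and 8.54 with vehicle, a rise of 0.83 ± 0.11 (adjusted p = 9.3e-05). In HL60 it had 8.76 and 9.18 with AZA, against 10.33 and 10.43 with vehicle, with a difference of -1.41 ± 0.11 (adjusted p = 9.52e-07). Arrays did not overlap in either line. With the RNA integrity covariate the AML-193 difference was 0.40 (adjusted p = 0.376) and the HL60 difference -1.13 (adjusted p = 0.000653). MTFMT, which formylates the methionyl tRNA that MARS2 charges, differed by 0.60 in AML-193 (adjusted p = 0.00556) and by -1.43 in HL60 (adjusted p = 9.13e-06). Its AML-193 vehicle arrays read 7.33 and 7.84, and its values are given without the RNA integrity covariate. MTFMT was not called in HNT-34 (0.09) or KG1a (-0.12), where MARS2 was 0.03 and -0.23.

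IARS2, the mitochondrial isoleucyl enzyme, was the only member called higher on the mean (0.24 ± 0.03, adjusted p = 0.000106), where its cytosolic counterpart IARS1 was -0.55 ± 0.03. It had 11.95 and 11.98 with AZA, against 11.59 and 11.60 with vehicle in AML-193 (0.37 ± 0.07, adjusted p = 0.000924). HL60 arrays read 11.90 and 11.93 with AZA, against 11.61 and 11.61 with vehicle (0.30 ± 0.07, adjusted p = 0.00331). AZA arrays were above vehicle arrays in both. The rise in HNT-34 (0.21 ± 0.07, adjusted p = 0.0285) was lost without vehicle replicate 2 (0.17, adjusted p = 0.192), AZA replicate 1 (0.18, adjusted p = 0.179) or AZA replicate 2 (0.25, adjusted p = 0.0684) of HNT-34, and with the RNA integrity covariate the AML-193 value was 0.27 (adjusted p = 0.374).

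AARS2 and VARS2, the mitochondrial alanyl and valyl enzymes, fell in AML-193 and rose in HL60. AARS2 had 10.17 and 10.10 with AZA, against 10.87 and 10.67 with vehicle in AML-193 (-0.64 ± 0.10, adjusted p = 0.000269) and 10.34 and 10.28 with AZA, against 9.89 and 9.81 with vehicle in HL60 (0.46 ± 0.10, adjusted p = 0.00226). VARS2 had 10.80 and 10.82 with AZA, against 11.54 and 11.40 with vehicle in AML-193 (-0.66 ± 0.08, adjusted p = 4.39e-05) and 10.58 and 10.38 with AZA, against 10.22 and 10.20 with vehicle in HL60 (0.27 ± 0.08, adjusted p = 0.0138). RNA integrity moved with treatment in both lines, and none of these 4 calls held with it as a covariate (AARS2 -0.28 and 0.23, VARS2 -0.36 and 0.08 in AML-193 and HL60). The HL60 call of VARS2 was also lost without either vehicle array or AZA replicate 1 of HL60 (0.18 to 0.28, adjusted p = 0.0523 to 0.128).

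CARS2, the mitochondrial cysteinyl enzyme, fell in HNT-34 (-0.39 ± 0.08, adjusted p = 0.00135) and AML-193 (-0.28 ± 0.08, adjusted p = 0.00922, and -0.27 with adjusted p = 0.446 under the RNA integrity covariate). The KG1a difference (-0.28 ± 0.08, adjusted p = 0.0318) was lost without any 1 of the 4 KG1a arrays (-0.23 to -0.33, adjusted p = 0.0764 to 0.231). Its 3 bright probe sets spread from -0.39 to 0.16 in HNT-34, with mean signals of 11.32 for the one used and 7.12 for the others. Averaging all 5, dim ones included, gave a mean difference over the lines of -0.04 (adjusted p = 0.317). WARS2 was called lower in HNT-34 (-0.52 ± 0.12, adjusted p = 0.00477), where averaged probe sets gave -0.21 (adjusted p = 0.189). That average included a probe set with a mean signal of 4.38, against 8.59 for the one used. CARS2 in HNT-34 was -0.12 with averaged probe sets (adjusted p = 0.192). LARS2, NARS2, PARS2, HARS2, YARS2, FARS2, EARS2, RARS2 and SARS2 had mean differences between -0.12 and 0.09. Of these, SARS2, the mitochondrial seryl enzyme, rose in HL60 (0.42 ± 0.07, adjusted p = 0.000654), HARS2 fell there (-0.36 ± 0.09, adjusted p = 0.00435), and YARS2 was called in no line. LARS2, the mitochondrial leucyl enzyme, fell in KG1a (-0.36 ± 0.07, adjusted p = 0.00662), a call lost without KG1a AZA replicate 2 (-0.31, adjusted p = 0.0878) and in a fit of the KG1a arrays alone (adjusted p = 0.058). NARS2, the mitochondrial asparaginyl enzyme, fell in HNT-34 (-0.31 ± 0.06, adjusted p = 0.00223). The mitochondrial rises in AML-193 beside MARS2 and IARS2 were FARS2 (0.55), WARS2 (0.33), RARS2 (0.32) and EARS2 (0.29). With the covariate FARS2 was -0.18 (adjusted p = 0.762) and WARS2 -0.21 (adjusted p = 0.677), and another FARS2 probe set gave -0.02. Without AML-193 vehicle replicate 1 they were 0.36 for FARS2 (adjusted p = 0.0984), 0.14 for WARS2 (adjusted p = 0.390) and 0.24 for EARS2 (adjusted p = 0.0771). RARS2 was 0.28 without AML-193 vehicle replicate 2 (adjusted p = 0.0707) and 0.30 without AML-193 AZA replicate 2 (adjusted p = 0.0672), and EARS2 was 0.22 without AML-193 AZA replicate 1 (adjusted p = 0.103). WARS2 was also no longer called without either AML-193 AZA array (0.30 and 0.36) or without any 1 HNT-34 array or KG1a AZA array (0.33).

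Pairing enzymes of the same amino acid gave 13 pairs, with FARS2 set against both FARSA and FARSB. The cytosolic change lay below the mitochondrial one in 10 pairs in AML-193, 10 in HNT-34, 9 in KG1a and 9 in HL60. The median of cytosolic minus mitochondrial change was -0.63, -0.45, -0.04 and -0.47 in that order. On the mean the difference was largest for WARS1 and WARS2 (-1.24 and -0.15), AARS1 and AARS2 (-0.94 and -0.05) and IARS1 and IARS2 (-0.55 and 0.24). It ran the other way for RARS1 and RARS2 (0.11 and 0.07), HARS1 and HARS2 (-0.05 and -0.10), FARSA and FARS2 (0.19 and 0.01) and VARS1 and VARS2 (0.03 and -0.15). The pairs were compared as values with no test, since genes are not replicates.

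**Figure D4:**
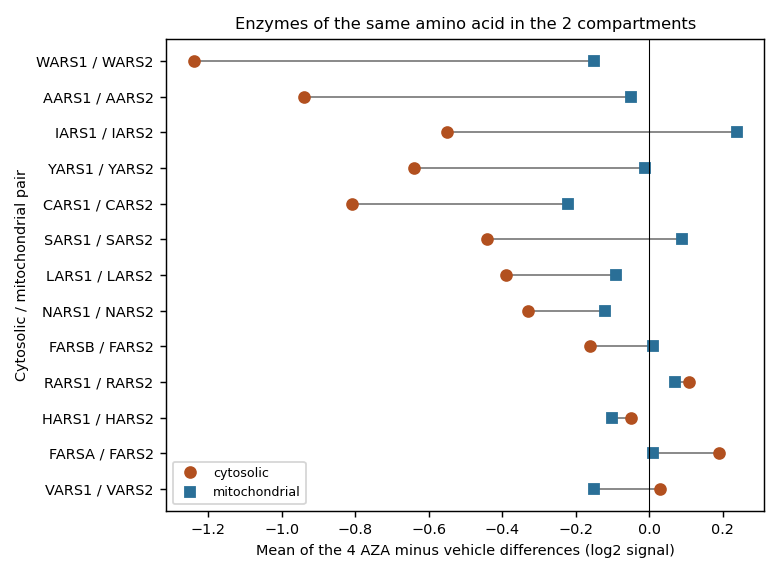
Mean of the 4 AZA minus vehicle differences (log2 signal) of the cytosolic (orange circle) and mitochondrial (blue square) enzyme of each of 13 pairs, joined by a line. The circle is left of the square in 9 pairs, most widely for WARS1 and WARS2 (-1.24 and -0.15).

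Without drug, the level differed between the 4 lines for 30 of the 32 genes (moderated F-test of limma, adjusted p under 0.05), against 85.1% of all tested genes. The exceptions were FARSB (adjusted p = 0.159) and IARS2 (adjusted p = 0.0509). FARSA spread most, by 2.10 log2 units: 12.17 ± 0.01 in HL60, 11.98 ± 0.27 in KG1a, 11.36 ± 0.26 in HNT-34 and 10.07 ± 0.26 in AML-193 (SD, n = 2 each). Its HL60 and KG1a arrays overlapped. The other FARSA probe set had vehicle means of 11.52, 11.54, 11.00 and 11.06 in the same lines, and the AML-193 vehicle arrays were those with a 3′ minus 5′ signal of 1.27. MARS2 ran from 10.38 ± 0.07 in HL60 through 9.50 ± 0.01 in KG1a and 9.23 ± 0.01 in HNT-34 to 8.45 ± 0.13 in AML-193, with no overlap between neighbours. WARS1 was highest in HNT-34 (13.87 ± 0.08), then HL60 (13.19 ± 0.01), KG1a (12.90 ± 0.01) and AML-193 (12.19 ± 0.01), again without overlap. On the probe set used, WARS2 was also highest in HNT-34 (9.47 ± 0.02) but lowest in HL60 (7.61 ± 0.19). KG1a was at 8.92 ± 0.07 and AML-193 at 8.65 ± 0.27. The other bright WARS2 probe set (mean signal 8.30, against 8.59) gave another order. Its vehicle means were 9.42 in HL60, 8.91 in HNT-34, 8.10 in KG1a and 7.11 in AML-193, so the WARS2 order depends on the probe set. AML-193 was highest for VARS2 (11.47 ± 0.10, against 9.71 ± 0.01 in the lowest line, HNT-34) and AARS2 (10.77 ± 0.14, against 9.54 ± 0.09 in HNT-34). All these AML-193 levels come from the vehicle arrays with a 3′ minus 5′ signal of 1.27. In the other vehicle groups that signal was -0.0033 to 0.0443. The part of RNA integrity in the place of AML-193 in each of these orders, MARS2, VARS2 and AARS2 included, was not tested.

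HARS1 and HARS2 lie head to head on chromosome 5 (GRCh38.p14), HARS1 at chr5:140673905-140691370 on the minus strand and HARS2 at chr5:140691455-140699305 on the plus strand, with 84 bases between their starts. Their promoter windows share 184 bases. Both took the same order in vehicle cells: HARS1 was 11.97 ± 0.01 in HL60, 11.15 ± 0.07 in HNT-34, 10.97 ± 0.01 in AML-193 and 10.11 ± 0.06 in KG1a. HARS2 was 10.95 ± 0.05, 10.16 ± 0.10, 9.67 ± 0.14 and 9.19 ± 0.03 in the same lines, and neighbours in the order did not overlap for either gene. EPRS1 and IARS2 lie on opposite strands of chromosome 1 with 47626 bases between them, and their mean differences were -0.39 and 0.24.

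**Figure D5:**
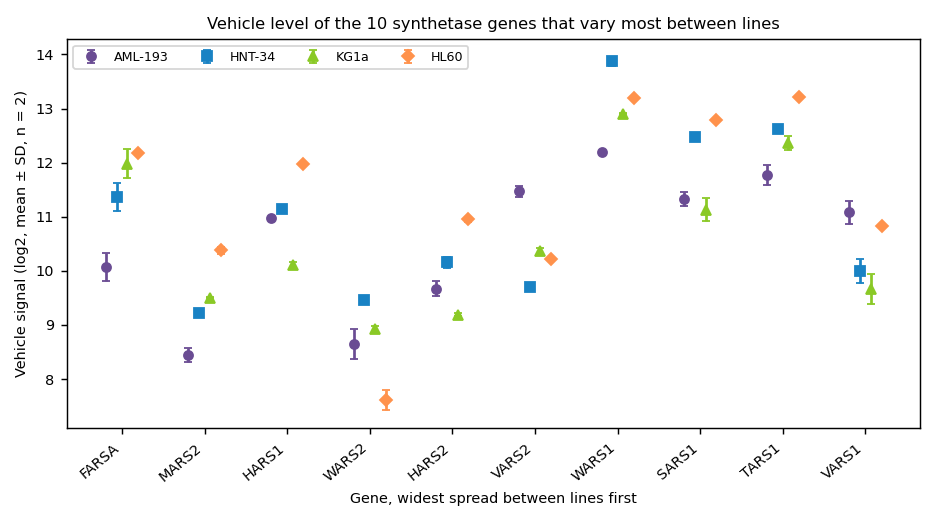
Vehicle signal (log2, mean ± SD of 2 arrays) in the 4 lines for the 10 synthetase genes with the widest spread between lines, widest first. By mean, HL60 is highest for FARSA, MARS2, HARS1, HARS2, SARS1 and TARS1, and KG1a is lowest for HARS1, HARS2, SARS1 and VARS1. Each gene is shown by its brightest probe set, and another probe set gave a different order for FARSA, WARS2, SARS1, TARS1 and VARS1. For VARS1 the other one was lowest in AML-193 (8.12) and highest in HL60 (9.71).

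Genes that act with the synthetases gave further values. These and the lists that follow are given without the RNA integrity covariate. Under it 1.12% of all tested genes were lower in AML-193 and 5.64% in HL60. ATF4 itself fell in all 4 lines, with a mean of -0.66 ± 0.03 (adjusted p = 5.47e-09). Of 27 tested ATF4 and amino acid genes, 22 fell in AML-193, 21 in HNT-34, 10 in KG1a and 25 in HL60, where 20.2%, 14.8%, 3.36% and 16% of all tested genes fell. In AML-193 3 of them rose, PSAT1 (0.74), PHGDH (0.38) and ALDH18A1 (0.50). In KG1a 3 others rose, ATF5 (0.73), DDIT3 (0.44) and TRIB3 (0.43), and in HNT-34 and HL60 0 rose. Of all tested genes 20.7% were higher in AML-193, 15.4% in HNT-34, 6.56% in KG1a and 25.2% in HL60. The largest mean falls were those of CHAC1 (-1.88), which degrades glutathione, SLC7A11 (-1.78), the cystine importer, ASNS (-1.62), which makes asparagine, and PCK2 (-1.38), the mitochondrial phosphoenolpyruvate carboxykinase. XPOT, which exports tRNA from the nucleus, fell in all 4 lines with a mean of -0.65 ± 0.05 (adjusted p = 2.27e-07). Of 11 genes of GCN2 and eIF2 control, 6 fell and 3 rose on the mean, against 16.5% lower and 23.3% higher of all tested genes. EIF2S2, the beta subunit of eIF2, had a mean of -0.37 and EIF2AK4, the gene of GCN2, -0.22, with a call in HNT-34 alone among the lines. Those that rose included EIF2AK3, the gene of the eIF2 kinase PERK (0.23), and PPP1R15A, whose protein directs a phosphatase to eIF2 (0.20).

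Of 10 mitochondrial translation factors 4 fell and 0 rose on the mean, among them MRRF, the ribosome recycling factor (-0.38, adjusted p = 8.63e-06). Of 75 mitochondrial ribosomal protein genes 19 fell and 16 rose, with a median of -0.03, beside 16.5% lower and 23.3% higher of all tested genes. GATB and GATC, subunits of the amidotransferase that completes mitochondrial glutaminyl-tRNA, fell by 0.17 and 0.21 on the mean, and the third subunit gene, QRSL1, had -0.02.

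WARS1 is also counted among interferon-induced genes, and 13 other such genes were measured. On the mean 9 of them rose and 2 fell, against 23.3% higher and 16.5% lower of all tested genes. In HNT-34, where WARS1 was lowest relative to vehicle, 6 rose and 3 fell (15.4% of all tested genes higher, 14.8% lower). ISG15 rose there by 1.63 (adjusted p = 5.88e-09) and IFI6 by 0.87 (adjusted p = 1.1e-05). Those that fell in HNT-34 were OAS1 (-0.34, adjusted p = 0.0158), CXCL10 (-0.34, adjusted p = 0.0292) and IRF1 (-0.19, adjusted p = 0.04). On the mean of the lines CXCL10 was called higher (0.23). In AML-193 0 rose and 2 fell, where 20.7% of all tested genes were higher and 20.2% lower. ISG15 was among those that fell there (-0.28, adjusted p = 0.0118), while it differed by 1.06 in KG1a and 1.45 in HL60.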

How the data were processed

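The deposited values are log2 signals of probe sets. Per the submitters' processing notes the authors used affy and RMA, whose versions, log base and order of steps are not given in the sources used here. RMA compresses changes of dim genes. The deposited values were used unchanged: all 16 arrays shared quantiles to within 0.00404, with a median of 6.73, so a shift common to all genes would not show. Of 54675 probe sets, 41097 had 1 gene symbol in the platform annotation, and each gene was read from the brightest of these on average. Testing required a signal at or above the array median on 2 or more arrays. A single limma model (3.58.1, R 4.3.3) held all 8 groups (8 residual degrees of freedom, empirical Bayes, Benjamini-Hochberg adjustment over 14049 genes, threshold 0.05), and the fit was tested on simulated data. Having 2 arrays per group limits the precision. All members could be named. From each accompanying list up to 4 genes with the largest absolute mean difference were eligible, with ATF4 and XPOT in any case. EIF2AK4, PPP1R15A, PSAT1, PHGDH, ALDH18A1, ATF5, DDIT3, TRIB3, OAS1, CXCL10 and IRF1, outside that rule, were named after their values were seen. The members and lists were chosen with earlier results of these data known. Cytosolic and mitochondrial genes were compared by counts and medians, with no test. Promoter windows came from RefSeq, with both strands searched for TGATGNAA, and 30 of the 35 members matched one. Alternatives were averaged probe sets, no filter, 2 other scalings, a trended prior, RNA integrity as a covariate, fits of 1 line, and each array left out. The average took every probe set of a gene with 1 symbol, dim ones included.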

Additional observations from a re-analysis of the deposited data

Results flagged for a closer look

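For 27 genes the AZA minus vehicle difference itself differed between the 4 lines (moderated F-test of limma, adjusted p under 0.05, where 57.0% of all tested genes did), and they are given here by the highest minus the lowest line in log2 units. Among cytosolic enzymes this range was 1.75 for WARS1, 1.41 for FARSA, 1.39 for SARS1, 1.18 for CARS1, 1.14 for GARS1, 1.11 for AARS1, 0.95 for YARS1, 0.80 for RARS1, 0.76 for TARS1, 0.66 for IARS1, 0.64 for EPRS1, 0.52 for KARS1, 0.46 for LARS1 and 0.46 for NARS1. Among mitochondrial enzymes it was 2.23 for MARS2, 1.09 for AARS2, 0.93 for VARS2, 0.86 for FARS2, 0.84 for WARS2, 0.55 for SARS2, 0.54 for LARS2, 0.51 for RARS2, 0.49 for CARS2, 0.42 for EARS2, 0.40 for HARS2, 0.40 for PARS2 and 0.37 for NARS2. MARS2 and WARS1 had the widest ranges: MARS2 was lowest in HL60 (-1.41) and highest in AML-193 (0.83), and WARS1 was lowest in HNT-34 (-2.36) and highest in KG1a (-0.61). RNA integrity differed between AZA and vehicle in AML-193 and HL60, and with it as a covariate 17 of the 32 genes passed the same test, against 31.3% of all tested genes. Its part in each single range was not tested.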

How the results depend on the processing

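The count of cytosolic genes lower on the mean was 12 under every alternative that left out 1 array. With a trended prior variance, 10 members were called in KG1a, 8 of them cytosolic and lower, against 6 and 4. With the RNA integrity covariate, 7 members were called in AML-193 (all 7 cytosolic and lower, against 22 and 11), 7 cytosolic genes were lower in KG1a, 12 members were called in HL60 (against 20), and the effect differed between lines for 17 (against 27). With arrays centred on the median of the tested genes, 14 cytosolic genes were lower in HL60 (against 10) and 13 on the mean, and the HL60 rises of KARS1 (0.10, adjusted p = 0.238), VARS1 (0.28, adjusted p = 0.109) and VARS2 (0.18, adjusted p = 0.0809) were no longer called. A fit of the 4 KG1a arrays alone called 2 members, both cytosolic and lower. Leaving out each array in turn gave 18 to 23 members called in AML-193, 14 to 17 in HNT-34, 3 to 9 in KG1a, 15 to 21 in HL60 and 17 to 21 on the mean. Lower cytosolic genes were then 10 to 12 in AML-193, 11 to 12 in HNT-34, 2 to 7 in KG1a and 10 in HL60; the effect differed between lines for 23 to 27 members and the vehicle level for 30 to 31. The KG1a counts were lowest without KG1a vehicle replicate 1 (3 members, 2 of them cytosolic and lower) and highest without HL60 AZA replicate 1 (9 members, 7 of them cytosolic and lower). Of 65 calls of members over the 4 lines, 47 held without any 1 array and 18 did not. Among values called in the main fit or under the alternative, signs turned for VARS1 with averaged probe sets (0.42 in AML-193, -0.35 in HL60). With the covariate they turned for FARS2 (-0.18) and WARS2 (-0.21) in AML-193. Some values called in neither fit turned with the covariate too, such as FARSB in AML-193 (-0.12 to 0.28) and FARSA in HL60 (-0.33 to 0.06). The cause was not tested. No paired analysis was possible because the labels give no replicate numbers that link arrays across groups. With 2 arrays per group, small changes can go uncalled.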
